A study of Mus musculus with 6 samples.

Results

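Nrn1 and Gap43 are a pair of genes named for nerve growth that were both read in cultured mouse T cells, and that differed in opposite directions between cells with the deleted and the floxed Prmt5 genotype. They are 2 of the 54525 genes in the table and 2 of the 16006 that passed the filter on low counts. Both were chosen by their measured KO over WT difference, strong and opposite in direction, so their own levels are described here without a test. The study profiled total RNA, after removal of ribosomal RNA, from 6 cultures that began as naive CD4 T cells from the spleens and lymph nodes of mice of the C57BL/6 strain. All cultures had been stimulated through CD3 and CD28 for 72 hours together with recombinant human TGFβ and mouse IL-6, a cytokine pair used to obtain Th17 cells. The KO group held 3 cultures with the genotype iCD4-PRMT5delta/delta and the WT group 3 cultures with the floxed genotype iCD4-PRMT5fl/fl. The labels do not say how the deletion was driven, which exons it removed or how old the mice were.

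Neuritin, the product of Nrn1, is a small protein that neurons tether to the outer cell surface by a glycosylphosphatidylinositol (GPI) anchor or release, and that promotes the growth of neurites and the upkeep of synapses. It was found as a gene switched on by neuronal activity, and it is also known from regulatory and anergic CD4 T cells. GAP-43, or neuromodulin, is a protein of the inner face of the growth cone membrane, where it binds calmodulin, is phosphorylated by protein kinase C and is held by palmitate, and it is a classical marker of growing and regenerating axons. The 2 proteins thus sit on opposite faces of the membrane. Only RNA was measured here.

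Nrn1 (ENSMUSG00000039114.16) lies on GRCm38 chromosome 13 from 36725361 to 36735131 on the minus strand, a compact gene of 9771 bases with 5 annotated transcripts, all of them coding. Gap43 (ENSMUSG00000047261.9) lies on chromosome 16 from 42248442 to 42340651 on the minus strand and spans 92210 bases, with 2 annotated transcripts of which 1 is coding. The longest transcript of each gene has 3 exons, 1779 bases for Nrn1 and 1420 bases for Gap43, and these are the lengths used below wherever the 2 genes are set side by side per kilobase (kb).

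Total counts ran from 36489789 to 41467126 in the KO libraries and from 36011906 to 43141474 in the WT libraries. Levels are CPM, counts scaled to library size after TMM normalization, and a log2 difference is KO over WT. Prmt5 itself stood at 52.4, 43.8 and 52.9 CPM in KO and at 109, 137 and 118 CPM in WT replicates 1, 2 and 3. The T cell markers were present in all cultures (summed level 2388 to 2513 CPM in KO and 2181 to 2416 CPM in WT). Among them Cd4, named after its values were seen, stood at 269, 120 and 233 CPM in WT replicates 1, 2 and 3. In KO replicates 1, 2 and 3 Cd4 stood at 276, 281 and 270 CPM (edgeR adjusted p = 0.234). A set of 7 Y-linked genes was picked for having counts in every KO library and none in any WT library. These genes summed to 570, 74.7 and 588 CPM in KO replicates 1, 2 and 3, and their sum of 0 in WT follows from the pick. KO replicate 2, the KO library with the lowest sum, was therefore also fitted alone against WT, on the assumption that a lone library varies like the others. This library still held Y-linked counts, at 74.7 CPM, so that fit does not remove the difference in these genes. The presence of these counts ran with genotype, so any difference in the sex of the mice cannot be told apart from genotype. Its part in the levels of Nrn1 and Gap43 was not tested. The table's column names join a pair of numbers for each KO culture, one of them common to all 3, and do not explain them. If that number is a shared animal, the KO cultures were not independent and the p-values are too small.

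Nrn1 was an abundant transcript of the KO cultures and a moderately abundant one of the WT cultures. Its level was 364, 379 and 394 CPM in KO replicates 1, 2 and 3, and 74.3, 71.6 and 79.2 CPM in WT replicates 1, 2 and 3. Every KO library lay far above every WT library, and within each genotype the 3 libraries lay close together next to that gap. The deposited counts behind these levels were 15157, 14317 and 17010 in KO and 2624, 2915 and 3227 in WT, so counting error was small. Nrn1 averaged 379 ± 14.9 CPM in KO and 75.0 ± 3.85 CPM in WT (SD, n = 3 each), which is 5.05-fold higher in KO (log2 2.34). Over the 9 pairs of a KO and a WT library, the ratio ran from 4.6 to 5.50.

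Gap43 was a modestly expressed gene of the WT cultures that was nearly absent from the KO cultures. Its level was 0.192, 0.212 and 0.139 CPM in KO replicates 1, 2 and 3, and 11.5, 10.9 and 11.7 CPM in WT replicates 1, 2 and 3. No KO library came near a WT library, and the WT libraries differed among themselves by little. The KO levels rest on 8, 8 and 6 counts, against 407, 444 and 475 counts in the WT libraries. The Wilson 95% intervals of the KO levels were 0.0974 to 0.379, 0.107 to 0.418 and 0.0637 to 0.303 CPM, so the KO libraries were not distinguishable from one another at this depth. All 3 counts were above the 3 counts that a count of 0 would allow. Gap43 averaged 0.181 ± 0.0378 CPM in KO and 11.4 ± 0.401 CPM in WT (SD, n = 3 each), 1.59% of it remaining in KO, 62.8-fold lower in KO (log2 -5.96). Over the 9 pairs of libraries Gap43 was 51.5-fold to 83.9-fold lower in KO. From the summed counts, 22 in KO and 1326 in WT, the exact 95% interval of that fold ran from 41.6 to 101, which covers counting error only. In mixed cultures, fewer cells that express a gene and less of its RNA per cell cannot be told apart.

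**Figure D1:**
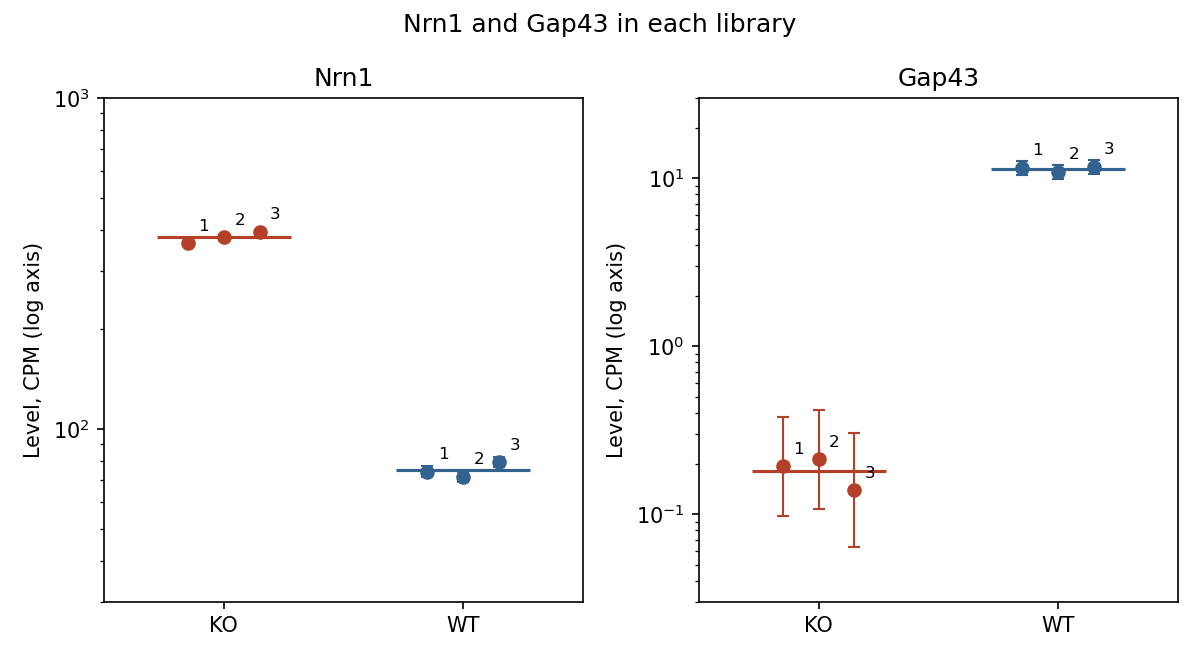
Level of Nrn1 (left panel) and Gap43 (right panel) in CPM on a log axis, with KO to the left of WT. Points are single libraries marked by replicate number, vertical bars are Wilson 95% intervals that cover counting error only, and horizontal lines are group means, at 379 CPM in KO and 75.0 CPM in WT for Nrn1 and at 0.181 CPM in KO and 11.4 CPM in WT for Gap43.

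The distance between the levels of the 2 genes differed between the genotypes. Per kb of transcript, Nrn1 stood at 213 CPM per kb in KO and 42.2 CPM per kb in WT, and Gap43 at 0.127 CPM per kb in KO and 8.0 CPM per kb in WT. The level of Nrn1 was thus 1672 times that of Gap43 per kb in KO (1428 to 2263 in single libraries) and 5.27 times that of Gap43 in WT (5.15 to 5.42). Among 12276 tested protein-coding genes ranked by level per kb, Nrn1 stood between places 232 and 252 from the top in the KO libraries and between places 1648 and 1839 in the WT libraries. Gap43 stood between places 11605 and 11877 in KO and between places 5828 and 5946 in WT, close to the middle of the order.

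The spread of both genes between replicates was small. The coefficient of variation of Nrn1 was 3.94% in KO and 5.12% in WT, and that of Gap43 was 20.9% in KO, where counts were in single digits, and 3.53% in WT. The biological coefficient of variation fitted by edgeR was 0.0771 for Nrn1 and 0.130 for Gap43, below the 0.104 and 0.179 that the trend over all genes gave at their levels. With KO replicate 2 fitted alone against WT, the log2 difference was 2.34 for Nrn1 and -5.72 for Gap43. The authors' deposited table, made from the same libraries, gives log2 differences of 2.34 for Nrn1 and -5.93 for Gap43. Both genes were chosen for a large difference in these libraries, so these values are a description and no separate check.

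The genotypes differed widely, which is the setting in which these values are to be read. At an edgeR adjusted p under 0.05, 21.7% of tested genes were called higher in KO and 20.9% lower, 42.5% in all, and the groups did not overlap for 55.6% of tested genes (28.2% higher in KO and 27.5% lower). Nrn1 and Gap43 are among these by the way they were chosen. In the order of fitted log2 differences, 6 of the 16006 tested genes had a larger fall than Gap43, and 3 of these were among the 9712 genes that averaged 5 CPM or more. For Nrn1, 442 genes had a larger positive value, of which 69 averaged 5 CPM or more. Those below Gap43 in this order were Slc38a4, Cwh43, Gm30717, Ly6g, Nhs and Mchr1, and the closest of them, Mchr1, had 1, 0 and 0 counts in KO and 26, 39 and 34 counts in WT. These 6 are named because of their values.

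**Figure D2:**
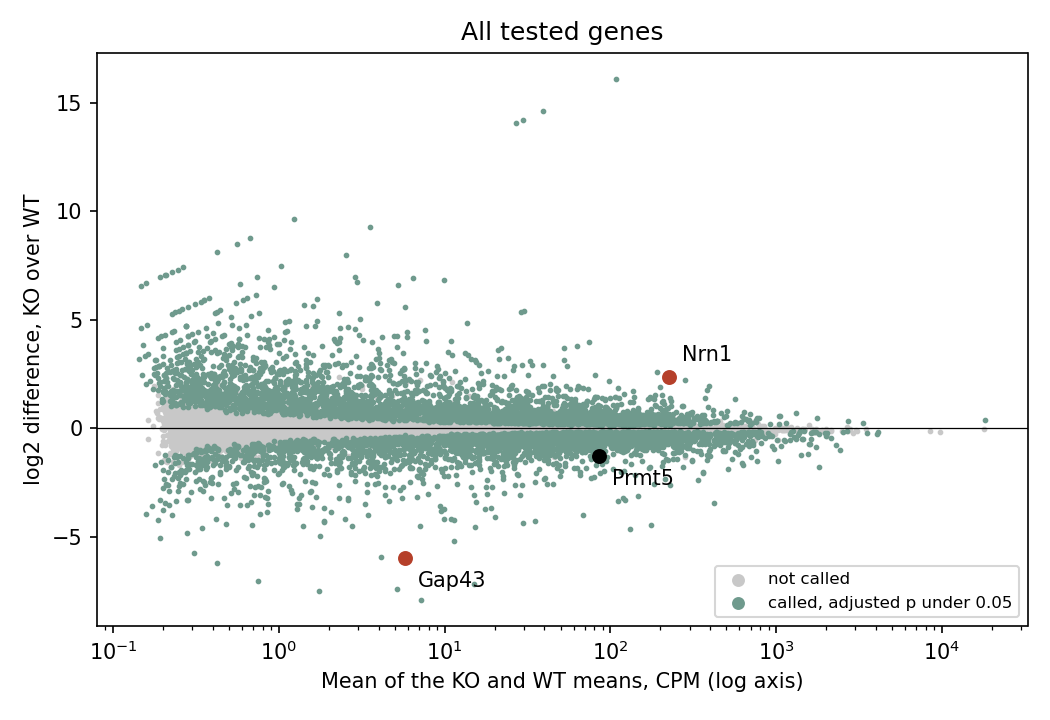
Log2 difference of KO over WT against the mean level in CPM (log axis) for the 16006 tested genes, with genes called at an adjusted p under 0.05 in green and the others in grey. Nrn1 (log2 2.34) and Gap43 (log2 -5.96) are marked in red and Prmt5 in black, and the fitted values of genes without counts in WT depend on the prior count and are no bounds.

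Other proteins of the growth cone split between the genotypes, and the closest relatives of GAP-43 in function went opposite ways. Of 18 listed genes 9 passed the filter on low counts, and 2 of these rose and 4 fell, with 3 not called, beside 42.5% called among all tested genes. Their median log2 difference was 0.46, against -0.0026 over all tested genes, and the mean was 0.04. Basp1, which like Gap43 encodes a lipid-anchored protein of the growth cone membrane, stood at 18.3, 20.8 and 30.7 CPM in KO and at 54.3, 46.8 and 61.2 CPM in WT. Its log2 difference was -1.22 ± 0.20 (edgeR adjusted p = 0.00215). Marcks, a prominent membrane-bound substrate of protein kinase C, stood at 12.6, 11.4 and 17.8 CPM in KO and at 2.95, 2.06 and 2.94 CPM in WT. It rose by log2 2.40 ± 0.22 (edgeR adjusted p = 0.000174), whereas Gap43, which encodes another substrate of that kinase, was lower in KO.

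Marcksl1, the smaller relative of Marcks, averaged 39.4 ± 9.46 CPM in KO and 21 ± 10.4 CPM in WT and was not called (edgeR adjusted p = 0.0933), though it was with spike-in scaling and without the filter (edgeR adjusted p 1.62e-05 and 7.97e-05). Without WT replicate 2 its adjusted p was 0.0394 in edgeR, with a smaller log2 difference of 0.55 against 0.91 with all libraries. Dpysl2, a collapsin response mediator that steers microtubules in growth cones, fell by 1.12 on the log2 scale to 75.3 ± 6.57 CPM in KO, against 163 ± 15.1 CPM in WT. Gpm6b, a membrane glycoprotein of neurons and glia, fell to 8.14 ± 0.947 CPM in KO, against 23.7 ± 3.86 CPM in WT (log2 -1.54 ± 0.15). L1cam, a neuronal adhesion molecule named after its values were seen, rose by log2 1.11 ± 0.33 (edgeR adjusted p = 0.0285), a call lost without any 1 library other than WT replicate 1 (adjusted p 0.0516 to 0.084). Stmn2, which neurons use to keep microtubules dynamic, had 0 counts in all 6 libraries.

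The genes whose products act on GAP-43 changed by less than 2-fold where they changed at all. Of 19 listed genes 17 passed the filter, and 5 rose and 6 fell, beside 42.5% called among all tested genes. The median log2 difference of the list was -0.01 and the mean 0.07, which differ in sign. Its median was 0.03 under upper-quartile scaling and 0.12 under spike-in scaling. Calm2, a calmodulin gene, stood at 419 ± 7.71 CPM in KO and 600 ± 39.3 CPM in WT (log2 -0.52 ± 0.06, edgeR adjusted p = 0.000433). Scaling by spike-in RNA, which raised the median of all genes by 0.14, ended the Calm2 call (edgeR adjusted p = 0.157) and left 5 called genes in this list, all of them higher. Leaving out KO replicate 1, KO replicate 3 or WT replicate 3 left 7 called genes in the list, and KO replicate 2 alone against WT left 3.

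Among protein kinase C genes, Prkcd rose to 91.7 ± 8.91 CPM in KO, against 59.0 ± 4.16 CPM in WT (log2 0.64 ± 0.09, edgeR adjusted p = 0.0011). The others, named after their values were seen, did not share one direction. Prkca and Prkce were called higher, and Prkcb and Prkcq were not called. Prkch was called lower, at 486 ± 47.3 CPM in KO and 575 ± 25.9 CPM in WT (edgeR adjusted p = 0.0372). The Prkch call was lost under spike-in or upper-quartile scaling, and the Prkca call with any 1 KO library left out. Of the palmitoyl transferase genes, Zdhhc15 rose by log2 0.70 ± 0.09, to 34.9 ± 1.77 CPM in KO against 21.5 ± 1.95 CPM in WT. Zdhhc3 fell by 0.42 on the log2 scale, to 85.9 ± 3.60 CPM in KO against 115 ± 10.1 CPM in WT, a call lost with spike-in scaling (edgeR adjusted p = 0.328). Neurogranin, the calmodulin-binding protein of dendrites encoded by Nrgn, was at most near the floor, at 0.0483 ± 0.0228 CPM in KO and 0.00818 ± 0.0142 CPM in WT.

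**Figure D3:**
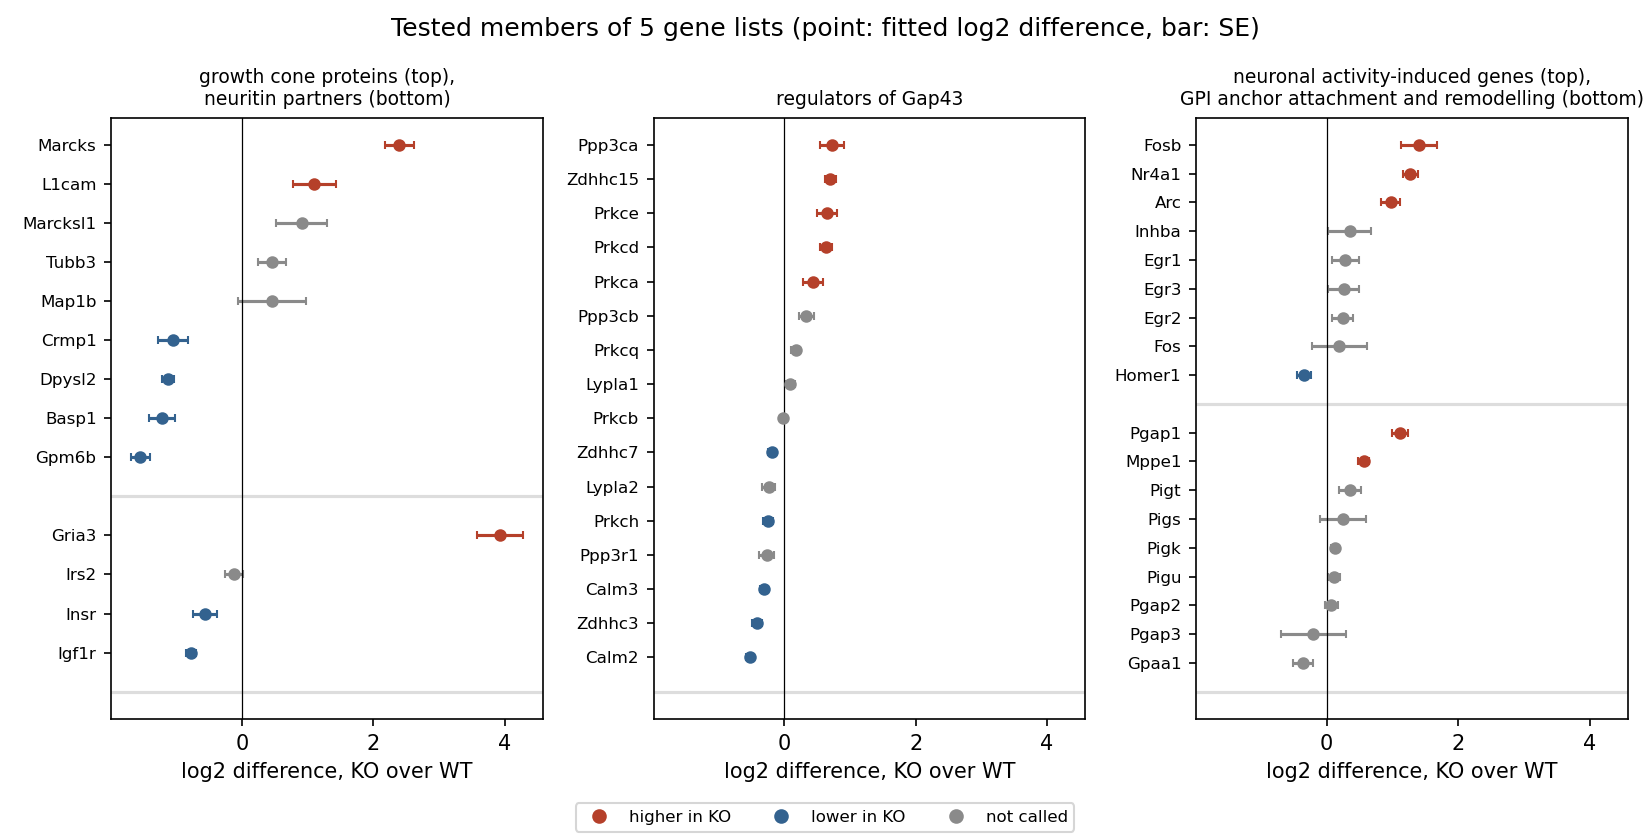
Log2 difference of KO over WT for tested members of 5 gene lists, with each point the fitted value and each bar its SE, in red where called higher in KO, in blue where called lower and in grey where not called. Marcks (2.40) and Gria3 (3.93) lie farthest to the right, and Gpm6b (-1.54) lies farthest to the left.

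Genes for proteins linked to neuritin signalling were mostly silent in these cultures, with 4 of 10 past the filter. Of these 4, 1 rose and 2 fell, beside 42.5% called among all tested genes. The median log2 difference was -0.34 and the mean 0.62, which differ in sign. Gria3, which encodes a subunit of the AMPA type of glutamate receptor, was low in both groups, at 4.01, 3.76 and 4.82 CPM in KO and at 0.142, 0.197 and 0.466 CPM in WT. It rose by log2 3.93 ± 0.35 (edgeR adjusted p = 0.000148). Igf1r, the receptor for insulin-like growth factor, fell to 32.5 ± 2.02 CPM in KO, against 55.5 ± 1.49 CPM in WT (log2 -0.77 ± 0.07, edgeR adjusted p = 0.00016). Insr, the insulin receptor gene, had a log2 difference of -0.56 ± 0.18 (edgeR adjusted p = 0.037), a call lost under spike-in or upper-quartile scaling (0.137 and 0.0562) and without any 1 library other than WT replicate 2 (adjusted p 0.0875 to 0.13). Irs2, an adaptor below both receptors, stood at 11.8 ± 0.86 CPM in KO and 12.9 ± 2.19 CPM in WT and was not called (edgeR adjusted p = 0.53).

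Of the genes that neuronal activity induces, as it does Nrn1 in the brain, 9 of 15 passed the filter. Of these, 3 rose and 1 fell (median log2 difference 0.29), a share near the 42.5% called among all tested genes. Nr4a1, an immediate early gene that T cell receptor signalling also induces, stood at 22.4, 22.0 and 23.1 CPM in KO and at 10.2, 9.63 and 8.05 CPM in WT, a rise of log2 1.27 ± 0.11 (edgeR adjusted p = 0.000129). Arc, a synaptic plasticity gene, rose to 3.77 ± 0.215 CPM in KO, against 1.92 ± 0.192 CPM in WT, and Fosb to 1.33 ± 0.335 CPM in KO, against 0.502 ± 0.107 CPM in WT. Egr2 was not called, at 8.08 ± 1.18 CPM in KO and 6.82 ± 1.05 CPM in WT. Homer1, a scaffold of the synapse, fell by 0.34 on the log2 scale (edgeR adjusted p = 0.0323), a call lost under spike-in or upper-quartile scaling and without any 1 library other than WT replicate 2 (adjusted p 0.0671 to 0.126). Nrn1l, the paralogue of Nrn1, had 0 counts in all 6 libraries.

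Of 14 axon regeneration genes 8 passed the filter, and 1 rose and 2 fell (median log2 difference 0.14), a share near the 42.5% called among all tested genes. Creb1 rose by log2 0.30 ± 0.05, and Klf6 and Jun fell, with log2 differences of -0.55 and -0.25. None of the 3 was called with spike-in scaling (edgeR adjusted p 0.0927 to 0.758) or with KO replicate 2 alone against WT (0.0877 to 0.116). Gadd45a was not called, at 7.26 ± 1.17 CPM in KO and 6.12 ± 0.895 CPM in WT (edgeR adjusted p = 0.267).

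In T cells Nrn1 is known as a gene of anergic and regulatory cells, and the other genes of those states moved in both directions. Of 18 anergy genes, all of which passed the filter, 5 rose and 7 fell, beside 42.5% called among all tested genes. Their median log2 difference was 0.33 and the mean 0.15, and the split was 7 higher and 4 lower with spike-in scaling. Cblb, the ubiquitin ligase that raises the threshold for activation, stood at 116, 145 and 105 CPM in KO and at 46.2, 44.9 and 43.2 CPM in WT, a rise of log2 1.44 ± 0.12 (edgeR adjusted p = 0.000104). Izumo1r and Nt5e, surface markers used to define anergic CD4 cells, went the other way. Other surface receptor genes of the list, Lag3 and Pdcd1, named after their values were seen, rose by log2 0.88 and 0.70 (edgeR adjusted p = 0.00897 and 0.00709). Izumo1r, or folate receptor 4, which like neuritin is GPI-anchored, stood at 69.2, 82.8 and 73.4 CPM in KO and at 126, 148 and 149 CPM in WT, a fall of -0.91 ± 0.09 on the log2 scale (edgeR adjusted p = 0.000277). Nt5e, the CD73 gene, fell by 0.52 on the log2 scale, a call lost with spike-in scaling (edgeR adjusted p = 0.15). Dgka, a kinase that blunts diacylglycerol signals, fell to 378 ± 21.1 CPM in KO, against 580 ± 12.1 CPM in WT, also lost with spike-in scaling (edgeR adjusted p = 0.0649). Tnfrsf18, the GITR gene, fell to 191 ± 19.7 CPM in KO, against 350 ± 18.8 CPM in WT.

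All 15 listed genes of regulatory and follicular T cells passed the filter. Of these, 4 rose and 6 fell, beside 42.5% called among all tested genes. The median log2 difference was -0.03 and the mean 0.08, and upper-quartile (0.02) or spike-in (0.10) scaling made the median positive as well. Foxp3, which defines regulatory T cells, stood at 11.4 ± 1.30 CPM in KO and 16.6 ± 3.08 CPM in WT, a fall of -0.54 ± 0.15 on the log2 scale (edgeR adjusted p = 0.0243). It was no longer called with spike-in scaling (0.144) or with KO replicate 1, KO replicate 2 or WT replicate 3 left out (edgeR adjusted p 0.0671 to 0.0961). Il2ra fell to 215 ± 28.8 CPM in KO, against 484 ± 22.6 CPM in WT, and Icos to 145 ± 11.7 CPM in KO, against 582 ± 45.1 CPM in WT. Ikzf2, the Helios gene, stood at 80.3, 72.3 and 54.1 CPM in KO and at 10.8, 7.54 and 8.91 CPM in WT, a rise of log2 2.93 ± 0.18 (edgeR adjusted p = 4.05e-05). Itgae, the CD103 gene, stood at 94.3, 95.3 and 104 CPM in KO and at 4.59, 9.83 and 8.49 CPM in WT (log2 3.67 ± 0.25). The regulatory T cell genes thus did not share one direction.

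Of the genes that attach and remodel GPI anchors, on which surface neuritin depends, 2 of 9 tested were called. That share is below the 42.5% called among all tested genes, and both genes were higher. Both remodel the anchor: Pgap1, which trims the inositol acyl chain, rose to 23.8 ± 0.596 CPM in KO, against 11 ± 1.79 CPM in WT (log2 1.11 ± 0.12, edgeR adjusted p = 0.000386), and Mppe1 to 54.4 ± 5.06 CPM in KO, against 36.8 ± 1.81 CPM in WT. Of the subunits of the transamidase that joins the anchor to the protein, Gpaa1 stood at 19.0 ± 3.36 CPM in KO and 24.4 ± 3.18 CPM in WT, and Pigt at 4.61 ± 0.381 CPM in KO and 3.62 ± 0.625 CPM in WT. Neither was called.

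The neighbourhoods of the 2 genes differed. Around Nrn1, genes on both sides were expressed. Fars2, Lyrm4, Rpp40, F13a1 and Ly86 were called higher in KO, and Ppp1r3g and Rreb1 were not called. These calls are to be read beside the 21.7% called higher among all tested genes, and some were lost in alternatives, as given below. Fars2, the mitochondrial phenylalanine tRNA ligase gene, lies on the plus strand and meets the end of Nrn1, with 501 of the 2249 exonic bases of Nrn1 shared. Fars2 stood at 32.6, 34.6 and 31.7 CPM in KO and at 22.4, 24.3 and 23.7 CPM in WT (log2 0.49 ± 0.07, edgeR adjusted p = 0.00153). The libraries were stranded, but whether counting used the strand is not stated, so reads of the shared stretch could have been assigned to either gene. The part of such reads in the levels of Nrn1 and Fars2 was not tested. The antisense gene Gm30177, within Nrn1 but sharing no exonic base with it, had 0.0764 ± 0.0723 CPM in KO and 0.0164 ± 0.0284 CPM in WT and was not tested.

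On the far side of Nrn1, 132047 bases away, F13a1, which encodes a subunit of coagulation factor XIII and is known from macrophages, stood at 5.96, 6.01 and 7.13 CPM in KO and at 1.10, 0.909 and 0.687 CPM in WT (log2 2.83 ± 0.20, edgeR adjusted p = 5.78e-05). Ly86, known from B cells and myeloid cells and 610077 bases away, had a wider spread, at 5.79, 3.82 and 11.6 CPM in KO and at 2.01, 0.246 and 0.957 CPM in WT (log2 2.75 ± 0.65, edgeR adjusted p = 0.0122). With KO replicate 2 alone against WT, Ly86 was not called (edgeR adjusted p = 0.205). Myeloid and B cell markers were also higher in KO, to be read beside 21.7% called higher among all tested genes (42.5% in either direction). Among tested myeloid and dendritic markers 4 of 6 rose, with a summed level of 13.3 to 39.3 CPM in KO and 3.93 to 8.44 CPM in WT. Among B cell markers 4 of 6 rose, with a summed level of 42.5 to 121 CPM in KO and 4.08 to 25.1 CPM in WT. Their part in the values of F13a1 and Ly86 was not tested. Of the more distant neighbours, Lyrm4 and Rpp40 rose by log2 0.27 and 0.41 (edgeR adjusted p 0.0357 and 0.0184), and Ppp1r3g and Rreb1 were not called (edgeR adjusted p 0.285 and 0.216). The Lyrm4 call was lost without any 1 library (adjusted p 0.0595 to 0.109), and that of Rpp40 with KO replicate 1, KO replicate 3 or WT replicate 3 left out (0.0541 to 0.0729).

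Gap43 stood as a transcribed gene among silent ones on its lower side. Lsamp, a neuronal adhesion gene 66763 bases away, had 0.0265 ± 0.0459 CPM in KO and 0.0283 ± 0.0491 CPM in WT, Igsf11 had no count in KO and 0.0164 ± 0.0283 CPM in WT, and 4930435E12Rik had 0 counts throughout. Mir6540, an intronic miRNA gene of Gap43, and Drd3, a dopamine receptor gene, also had 0 counts in all libraries. On the upper side Zbtb20, a transcriptional repressor gene 535230 bases away, stood at 22.8, 25.6 and 21.7 CPM in KO and at 10.5, 8.62 and 9.69 CPM in WT. It rose by log2 1.29 ± 0.11 (edgeR adjusted p = 0.000129) where Gap43 was lower in KO. Tigit, an inhibitory receptor gene, was low in both groups and was not called (edgeR adjusted p = 0.681).

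The genes whose profiles over the 6 libraries were most like that of Nrn1 lay very close to it. Likeness was the root mean square difference between centred log2 CPM profiles among 9219 other genes with an assigned symbol that averaged 5 CPM or more. The closest was Pde3b, a cyclic nucleotide phosphodiesterase gene, with a difference of 0.08 and levels of 453, 469 and 475 CPM in KO and 104, 95.7 and 99.7 CPM in WT. Parp8, of the PARP family, followed at 0.10, with 52.4, 56.4 and 53 CPM in KO and 10.5, 9.92 and 9.5 CPM in WT. Car2, Psrc1 and S100a6 each lay at 0.13. These genes share the libraries and the genotype difference with Nrn1, so the likeness is a description of size and direction.

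The nearest profiles to that of Gap43 were more distant by this measure, which grows with the size of the difference: the root mean square of the centred profile itself was 2.82 for Gap43 and 1.17 for Nrn1. They were those of Ubd (0.63), Cxcr2 (0.64), Il17f (0.64), Serpinb1a (0.68) and Serpinb5 (0.70). Ubd, which encodes a ubiquitin-like protein, stood at 2.86, 3.37 and 1.97 CPM in KO and at 53.4, 57.0 and 60.1 CPM in WT. Il17f, a cytokine of Th17 cells, averaged 15.6 ± 0.928 CPM in KO and 338 ± 56.9 CPM in WT. The correlation with Gap43 over the 6 libraries, which share the genotype difference, was 0.998 for Ubd and 0.974 to 0.996 for the other 4, and that with Nrn1 was 0.994 to 0.999 for its 5. All 5 genes nearest to Gap43 were lower in KO by a smaller factor than Gap43, with log2 differences from -5.22 to -4.38.

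**Figure D4:**
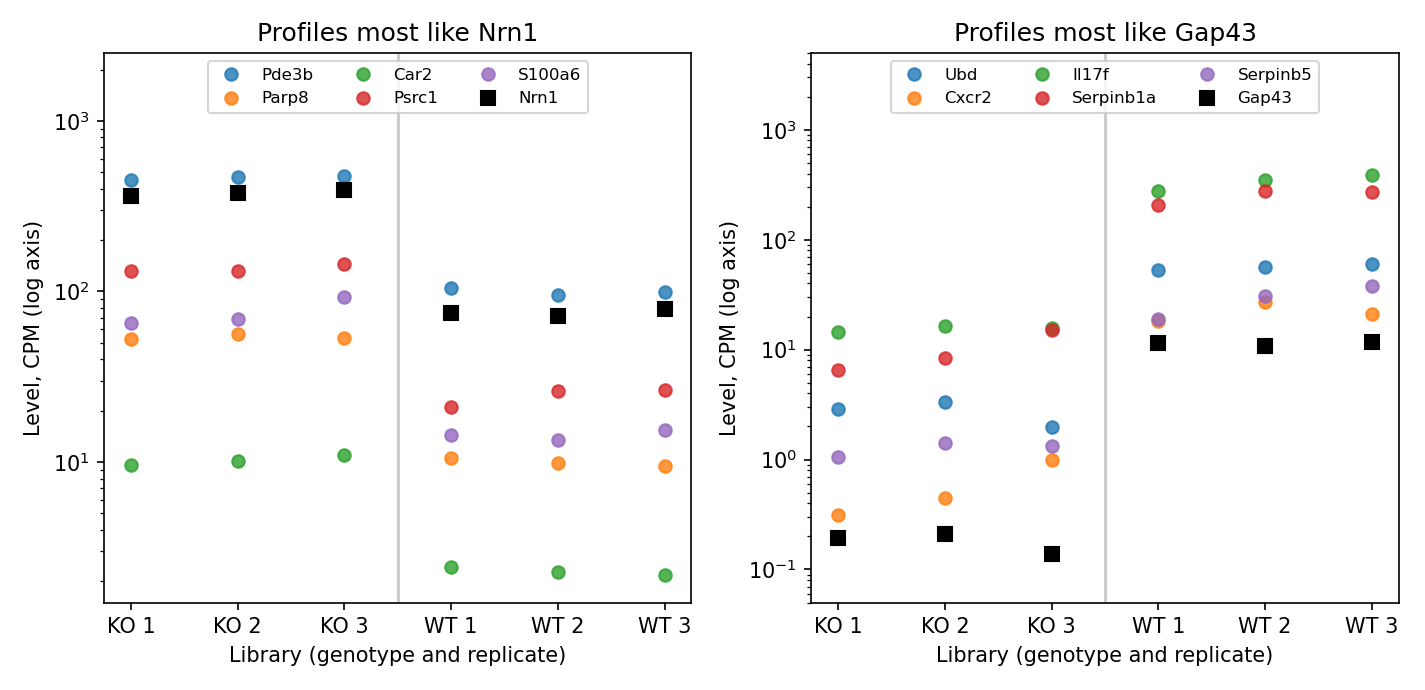
Level in CPM (log axis) of Nrn1 (left panel) and Gap43 (right panel), drawn as black squares, and of the 5 genes with the most similar profile for each, drawn as coloured points, in the 6 libraries, KO to the left. The points of Pde3b run beside those of Nrn1, and the 5 genes beside Gap43 lie above it in every library, with smaller gaps between the genotypes.

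Neuron markers were low in these cultures. The 10 of them summed to 2.35 to 2.43 CPM in KO and to 1.96 to 3.46 CPM in WT, 2 of them passed the filter, neither of these was called, and Nefl had 0 counts in every library. All 10 together were below the level of Gap43 alone in every WT library, and above it in every KO library, where Gap43 stood at 0.139 to 0.212 CPM. Of the 8 Schwann cell and glia markers 2 passed the filter and Ngfr had 0 counts throughout. Their summed level of 99.4 to 112 CPM in KO and 81.2 to 91.9 CPM in WT was nearly all Mbp, which was at 105 ± 6.38 CPM in KO and 85.0 ± 5.27 CPM in WT and whose locus T cells are known to transcribe. Mbp was called higher (log2 0.31 ± 0.07, edgeR adjusted p = 0.010), a call lost with spike-in scaling (0.0876) and with KO replicate 2 alone against WT (0.222).

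Markers of other cell types also differed between the genotypes, though the CD8 and NK list was split. The counts below are to be read beside 21.7% called higher and 20.9% called lower among all tested genes, 42.5% in all. All 3 tested gamma delta T cell markers rose, with summed levels of 72.2, 60.7 and 39.2 CPM in KO and 13.5, 10.8 and 10.8 CPM in WT replicates 1, 2 and 3. Of 4 tested CD8 and NK markers 3 rose and 1 fell, and the summed levels overlapped, at 56.4 to 97.3 CPM in KO and 65.9 to 82.1 CPM in WT. Of 9 stromal and endothelial markers 3 passed the filter on low counts, and all 3 rose. The list summed to 191 to 230 CPM in KO and 128 to 145 CPM in WT. Nearly all of this was Pecam1, at 210 ± 19.6 CPM in KO and 135 ± 8.48 CPM in WT. Among the 3 called markers, the call of Lum was lost when any 1 library other than KO replicate 1 was left out (edgeR adjusted p 0.0603 to 0.146). Pdgfrb rested on 10, 11 and 16 counts in KO and 1 count in each WT library. With KO replicate 2 alone against WT, all 4 B cell calls, the Lum and Pdgfrb calls and those of Cd8a and Cd8b1 were lost. The gamma delta sum was lowest in KO replicate 3 and the B cell sum highest there. Their part in the levels of Nrn1 and Gap43 was not tested.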

How the data were processed

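Per the submitters' processing notes, STAR, featureCounts, DESeq2 and DESeq were used with GRCm38.p3, with versions and roles not given in the sources used here. The authors deposited raw counts per gene, a normalized signal (counts divided by 1 factor per sample) and, for KO over WT, log2 fold changes with p-values adjusted for many tests. Only the counts entered the fits. The deposited length equalled the longest GENCODE M21 transcript for all genes whose versioned identifier matched (53229). The 92 spike-in RNAs were removed before fitting.

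Genes were kept by filterByExpr (minimum count 10, minimum total count 15). edgeR 4.0.16 (R 4.3.3) gave TMM factors, a quasi-likelihood test on a model of genotype alone and Benjamini-Hochberg adjusted p-values over 16006 genes, called under 0.05. The SE is the coefficient without prior counts divided by the root of F. The procedure was tested on simulated data with few changed genes and independent libraries. That test does not show how it behaves where genotypes differ widely, as here, or where cultures share an animal. Totals were 36011906 to 43141474 counts, and 3 counts are 0.0695 to 0.085 CPM, intervals and floors covering counting error only.

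Samples were grouped by title. Nrn1 and Gap43 and all gene lists were chosen with earlier results of these data known. Named genes were the members, Prmt5, 12 genes taken whatever their value, up to 4 genes of lowest p per programme list, the 3 coding neighbours per side, overlapping genes and 5 genes of likest profile. The main fit did not pair the samples by replicate number, and the series' design text calls them biological replicates. Alternatives were RLE, upper-quartile and spike-in scaling, DESeq2 1.42.0, no filter, each library left out, KO replicate 2 alone and a replicate block. 1 gene of the lists, included in their counts, is not reported here.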

Additional observations from a re-analysis of the deposited data

How the results depend on the processing

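The log2 difference of Nrn1 kept its direction in all alternatives run, from 2.30 to 2.37 with single libraries left out, and moved by more than its replicate spread to 2.46 with spike-in scaling. That of Gap43 kept its direction too, from -6.07 to -5.79 with single libraries left out. With KO replicate 2 alone against WT the Gap43 value moved by more than its replicate spread, to -5.72. Both genes were chosen for their difference in these libraries, so the kept directions are a description. The count of called genes was 6809, from 5203 to 7033 with single libraries left out, 4448 with spike-in scaling (3085 higher and 1363 lower, against 3466 and 3343) and 2752 with KO replicate 2 alone against WT, where fewer samples were fitted. Spike-in scaling raised the median log2 difference of all genes by 0.14. Called axon regeneration genes fell to 0 with spike-in scaling and to 0 with KO replicate 2 alone against WT (both edgeR), where 3 in each had an unadjusted p under 0.05, and DESeq2 called 3. Called regulators of Gap43 numbered 5 with spike-in scaling, 3 with that single KO library and from 7 to 12 with single libraries left out, and called activity-induced genes 2 with that single KO library. The cause of these shifts was not tested. Of the 73 called genes among 86 named and tested, 43 kept their call in every alternative. That count leaves out Lag3, Pdcd1, Cd4 and the protein kinase C genes other than Prkcd. Of the 73 called genes 0 turned sign. With the replicate number as a block, 6190 genes were called. The deviations of same-numbered KO and WT libraries had correlations of -0.02, 0.01 and 0.08. With so few libraries per group, these values cannot show whether same-numbered samples shared anything beyond the number. The 6 to 8 counts of Gap43 per KO library limit its fold to the counting interval given.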
